A study of Mus musculus with 16 samples.

Results

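The genes that make, carry and break down retinoic acid were examined in mouse embryoid bodies before and after 4 days of retinoic acid (RA). They are 9 genes, represented by 15 of the 33702 RefSeq transcript rows in the deposited table and chosen by symbol, out of 23891 genes in all. Embryoid bodies are free-floating aggregates in which embryonic stem cells begin to differentiate. R1, a mouse embryonic stem cell line, was grown without Lif for 4 days in dishes to which cells do not attach. The bodies were then either collected as the day 0 group, with RA at 0 µM, or collected 4 days after RA had been added at 2 µM, as the day 4 group. No bodies kept for the same 4 days without RA are among these samples, so that RA and the further days in culture cannot be told apart. Each day has 2 RNA samples, which the study's methods describe as repeats of the whole procedure on this single cell line. Every RNA sample was divided over 4 vials, which received mixes 1 to 4 of spike-in RNA (mix 4 without the mouse transcripts made in vitro), and each vial gave 1 library, 16 libraries in all. The vials are technical repeats of 1 RNA sample, and the comparison of days therefore had n = 2 against 2.

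Retinoic acid is made from vitamin A. Retinol enters a cell through the membrane receptor STRA6, is oxidized to retinaldehyde by RDH10 and then irreversibly to retinoic acid by ALDH1A2, whereas DHRS3 turns retinaldehyde back into retinol. The cytosolic carrier CRABP2 is known to hand retinoic acid to nuclear receptors, CRABP1 binds it in the cytosol, and the CYP26 enzymes hydroxylate it for removal. In the embryo, sources of ALDH1A2 and sinks of CYP26 shape the gradient of retinoic acid that patterns the hindbrain, spinal cord and limbs.

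Levels were given as FPKM (fragments per kilobase of transcript, scaled to the mapped fragments of the library), which compares genes per length. The labels state 39000000 to 59000000 paired-end reads per sample, and the FPKM table holds no depth per library. Its smallest values above 0 lie between 0.009 and 0.011, close to its rounding step, so that levels of a few hundredths are at the limit of what it can show. Among the day 0 libraries the vials of mixes 3 and 4 of RNA sample 2 stood apart. The SD of log2(FPKM + 0.1) over the 4 vials had a median over 11508 genes of 0.419 in this RNA sample, against 0.061 in the other day 0 sample and 0.092 and 0.088 in the day 4 samples. Their distance from mixes 1 and 2 followed the GC content of transcripts, with a median log2 difference of 0.65 below 45% GC and -1.88 between 55% and 60%. Results are therefore given with and without these 2 vials where the difference matters.

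Of the 9 genes, 5 were higher at day 4 (Cyp26b1, Stra6, Rdh10, Aldh1a2 and Dhrs3), 1 was lower (Cyp26a1) and 3 did not pass the test (Cyp26c1, Crabp1 and Crabp2). The test was limma on log2(FPKM + 0.1), with values averaged over the vials of an RNA sample and Benjamini-Hochberg adjusted p of at most 0.05. Among the 20281 genes tested, 30.8% were called by the same rule, 16.1% higher and 14.7% lower. Without the 2 vials that stood apart 6 of the 9 were higher and 3 lower, since Crabp2, Crabp1 and Cyp26c1 then passed, and the calls among all genes rose to 5503 higher (27.1%) and 6842 lower (33.7%). With the number of the RNA sample as a block, for the repeat of the procedure, the same 3 passed as well (4604 higher, or 22.7%, and 5983 lower, or 29.5%, among all genes). The median log2 difference was 1.64 over the 9 genes and -0.03 over all genes tested. Libraries of the days did not overlap for 7 of the 9. Those of day 4 were all higher for 6 (the 5 called higher and Crabp2) and all lower for Cyp26a1, against 19.9% and 14.7% of all genes, or 34.6% together. Because these are bulk samples, fewer cells of a type and less RNA per cell cannot be told apart in any of these values.

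**Figure D1:**
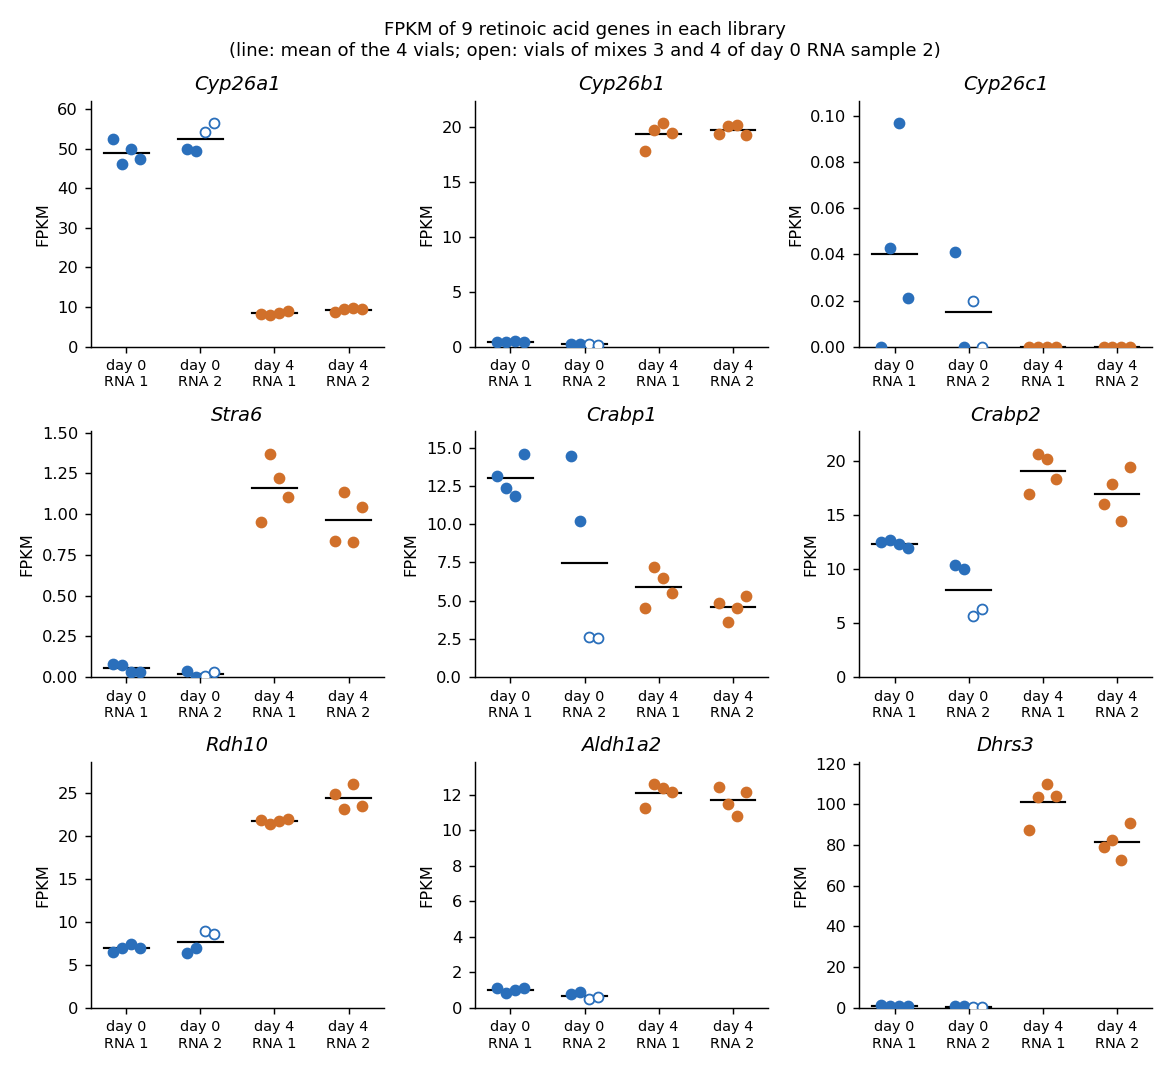
FPKM (y axes, linear from 0) of the 9 genes in each of the 16 libraries, by day and RNA sample (x axes). Points are vials in the order of mixes 1 to 4, lines are means over the 4 vials, and open points are the vials of mixes 3 and 4 of day 0 RNA sample 2, which fall apart from their sister vials most in Crabp1 (2.62 and 2.57 FPKM against 14.5 and 10.2).

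Before RA the most abundant of these transcripts was Cyp26a1, at 50.7 ± 2.46 FPKM (SD of 2 RNA samples). It was followed by Crabp1, Crabp2 and Rdh10, with means of 10.2, 10.2 and 7.30 FPKM whose library ranges overlapped. The other 5 were each below 1 FPKM on average. At day 4 Dhrs3 was the most abundant at 91.3 ± 14.1 FPKM, followed by Rdh10 at 23.0 ± 1.87, Cyp26b1 at 19.5 ± 0.288 and Crabp2 at 18 ± 1.47. The libraries of Cyp26b1 (17.8 to 20.3 FPKM) and of Crabp2 (14.4 to 20.6 FPKM) overlapped, so that this part of the order was within their spread. Aldh1a2 at 11.9, Cyp26a1 at 8.88, Crabp1 at 5.25 and Stra6 at 1.06 FPKM came next, with no overlap of libraries between these neighbours. Both orders are those of FPKM without a correction for GC content.

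The enzymes of breakdown exchanged places. Cyp26a1, the hydroxylase known as a rapid target of retinoic acid in the early embryo, lies on mouse chromosome 19 (GRCm38, 37697738 to 37701536, plus strand). Its mean was 48.9 and 52.4 FPKM in the day 0 RNA samples and 8.43 and 9.34 FPKM in the day 4 samples. The day 0 libraries ran from 46.0 through a median of 49.9 to 56.4 FPKM and those of day 4 from 8.07 through 8.82 to 9.79. Every day 4 library was thus below every day 0 library. The mean FPKM was 5.70-fold lower as a plain ratio, which like the other folds here holds no pseudocount (log2 difference -2.50, SE 0.15, adjusted p = 0.00457). With values corrected for GC content the log2 difference was -1.996, and -1.58 when the 2 vials that stood apart were also left out.

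Cyp26b1, the second retinoic acid hydroxylase, lies on chromosome 6 (84571414 to 84593908, minus strand). It stood at 0.431 and 0.215 FPKM before RA and at 19.3 and 19.7 FPKM after it, a 60.5-fold higher level (log2 difference 5.59, SE 0.34, adjusted p = 0.00459). With a pseudocount of 1 the log2 difference was 3.96, and with values corrected for GC content it was 6.49, called higher in both. Day 0 libraries spanned 0.164 to 0.506 FPKM (median 0.321), and day 4 libraries 17.8 to 20.3 FPKM (median 19.5). The lowest day 4 value was that of the mix 1 vial of RNA sample 1, the library whose share of ribosomal RNA reads the study's methods single out as an outlier. One RefSeq row, NM_001177713, carried 99.1% and 97.4% of the gene's FPKM in the day 4 samples. The other row, NM_175475, was above 0 in 3 day 4 libraries, at 0.627, 0.733 and 1.347 FPKM.

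Cyp26c1, the third member, sits 4417 bases upstream of Cyp26a1 on the same strand (37685112 to 37693320). It was listed at 0 in all 8 day 4 libraries and in 3 of the 8 at day 0, with a day 0 median of 0.0205 and a maximum of 0.097 FPKM. The test did not call it (adjusted p = 0.0894, or 0.0191 with the block), and its levels are within a few rounding steps of the table. Of these neighbouring genes, then, one was abundant before RA and the other barely detected on either day.

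Summed FPKM of the 3 Cyp26 genes was 49.4 and 52.7 at day 0 and 27.7 and 29.1 at day 4. Cyp26a1 made up 99.0% and 99.6% of that sum at day 0 and 30.4% and 32.1% at day 4. Cyp26b1 accounted for 69.6% and 67.9% at day 4, and its share lay between 66.9% and 70.9% in every day 4 library. The sum at day 4 came mainly from the other gene. After the GC correction the sums of the days overlapped, at 29.7 and 64.2 before RA (36.0 in place of 64.2 without the 2 vials that stood apart) and 34.1 and 46.0 after it, while Cyp26a1 made up 99.4% and 99.5% and then 27.7% and 26.9%. No test was run on the shares, and an exact permutation test of 2 RNA samples against 2 cannot go below p = 0.333.

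**Figure D2:**
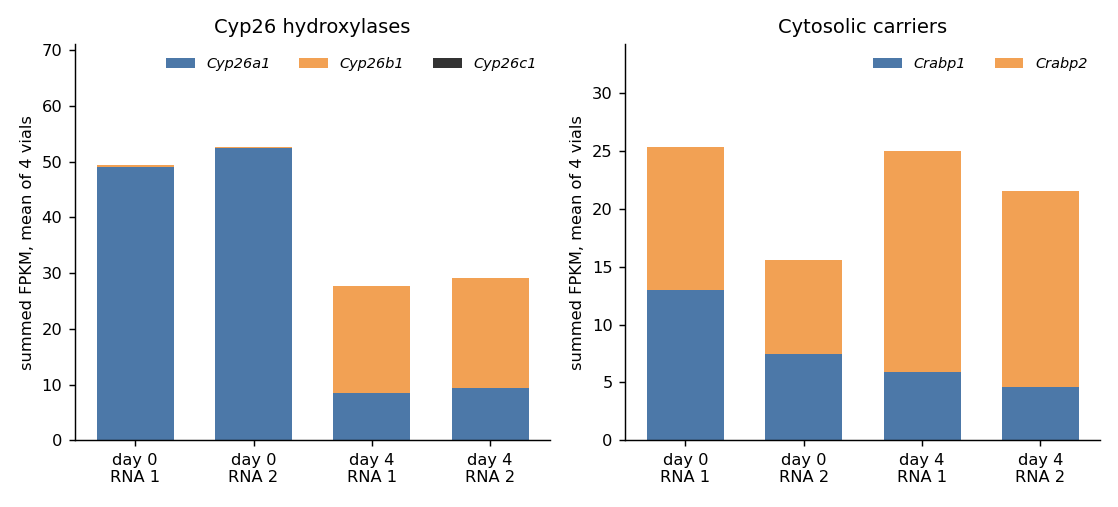
Summed FPKM (y axes, mean of the 4 vials) of the Cyp26 hydroxylases and of the cytosolic carriers in each RNA sample (x axes), stacked by gene. Cyp26a1 fills nearly the whole Cyp26 bar at day 0 (99.0% and 99.6%) and 30.4% and 32.1% at day 4, and Crabp2 takes 76.4% and 78.7% of the carrier bar at day 4.

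Retinoic acid receptors bind pairs of hexamers in the same direction, spaced by 5, 2 or 1 bases and called DR5, DR2 and DR1. The RefSeq promoter table (GRCm38.p6, 250 bases before to 50 after a start site) has 12 windows for 7 of the 9 genes, and Crabp2 and Rdh10 have none in it. The hexamer AGGTCA and the variants AGTTCA, also GGGTCA, and also GGTTCA were searched on both strands, overlaps allowed. Cyp26a1 had 2 hexamers, which form a DR5 on the opposite strand, 1 of the 4 Stra6 windows had a single hexamer, and the remaining windows had none. Of all 32851 windows of 300 bases, 43.7% held a hexamer, 0.0974% a DR5, 0.268% a DR2 and 0.222% a DR1. Rarb, the receptor gene long known for its DR5, is shown beside Cyp26a1 because both promoters hold this rare repeat while the transcripts went in opposite directions here. The stretches are written 5′ to 3′ on the strand of the gene, and the capitals mark the DR5, hexamers and spacer together.
Cyp26a1: taaagaTGAACTTTGGGTGAACTaatttg
Rarb: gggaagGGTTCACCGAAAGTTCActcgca
The first comes from chr19:37697770-37697798 (plus strand), with the repeat at bases -32 to -16 from the start site of its window, which lies inside the RefSeq span of the gene. The second comes from chr14:16575507-16575535 (minus strand), at bases -53 to -37. Rarb was at 0.195 ± 0.00707 FPKM before RA and 107 ± 0.753 FPKM after it (log2 difference 8.50, SE 0.17, adjusted p = 0.00443), the second highest difference of all genes tested. A match of letters is a description and not evidence of binding.

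Among uptake and carrier genes only Stra6 passed the test. Stra6 (chromosome 9, 58063793 to 58154004, plus strand) was at 0.0545 and 0.0200 FPKM before RA and at 1.16 and 0.961 FPKM after it (log2 difference 3.09, SE 0.23, adjusted p = 0.00599). No fold is given, because the day 0 level is at the limit of the table and the log2 difference ran from 0.99 with a pseudocount of 1 to 4.60 with one of 0.01, called higher with both. The day 0 libraries spanned 0 to 0.079 FPKM (median 0.032), those of day 4 0.831 to 1.37 FPKM (median 1.07). The days were far apart, although the level stayed close to 1 FPKM. When rows were tested in place of genes, 3 of its 4 RefSeq rows were called higher (NM_001162476, NM_001162479 and NM_009291) and NM_001162475 was not, beside 10.2% higher and 8.67% lower among the 28214 rows tested.

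Crabp1 (chromosome 9, 54764748 to 54773110, plus strand) averaged 13.0 and 7.46 FPKM before RA and 5.92 and 4.57 FPKM after it. Its day 0 libraries reached from 2.57 through a median of 12.1 to 14.6 FPKM and those of day 4 from 3.62 through 5.08 to 7.18, so that the days overlapped. The overlap came from the 2 vials that stood apart, at 2.62 and 2.57 FPKM beside 14.5 and 10.2 FPKM in the other vials of the same RNA. The log2 difference was -0.91 (SE 0.35, adjusted p = 0.124), which did not pass. Crabp1 was called lower without these vials (-1.27, adjusted p = 0.00588) and with the block (adjusted p = 0.0105), and with values corrected for GC content the sign turned (0.42, adjusted p = 0.0817). With the GC correction and the block together, it was called higher (adjusted p = 0.0370). Over the 24 alternative settings the adjusted p of this gene ran from 0.00453 to 1.

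Crabp2 (chromosome 3, 87948693 to 87953372, plus strand) averaged 12.3 and 8.09 FPKM before RA and 19.0 and 16.9 FPKM after it. Here the day 0 libraries (5.67 to 12.7 FPKM, median 11.1) were all below those of day 4 (14.4 to 20.6 FPKM, median 18.1). The log2 difference of 0.84 (SE 0.27) nevertheless missed the threshold, with an adjusted p of 0.0846. It was called higher with the block (adjusted p = 0.00974), without the vials that stood apart (0.67, adjusted p = 0.0191) and after the GC correction (1.01, adjusted p = 0.00486), and its adjusted p ran from 0.00118 to 0.426 over the 24 settings. Crabp2 made up 48.8% and 57.7% of the summed FPKM of both carriers at day 0, and 76.4% and 78.7% at day 4. Across single libraries this share was 41.7% to 71.0% before RA and 74.2% to 83.1% after it, without overlap, and no test was run on this share. After the GC correction, under which both carriers had positive log2 differences (0.42 and 1.01), it was 67.4% and 56.8% and then 72.0% and 70.5%.

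All 3 genes of synthesis and its reversal were higher at day 4. Rdh10, the retinol dehydrogenase of the first oxidation (chromosome 1, 16105882 to 16132550, plus strand), was at 6.94 and 7.67 FPKM before RA and at 21.7 and 24.3 FPKM after it. That was a 3.15-fold higher level (log2 difference 1.64, SE 0.16, adjusted p = 0.00926). Libraries lay between 6.33 and 8.86 FPKM (median 6.96) and between 21.3 and 26.0 FPKM (median 22.5), without overlap. Before RA it was the most abundant of the 3.

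Aldh1a2, which carries out the irreversible step (chromosome 9, 71215789 to 71296243, plus strand), was at 1.02 and 0.689 FPKM before RA and at 12.1 and 11.7 FPKM after it. Libraries from before RA spanned 0.492 to 1.14 FPKM (median 0.852) and those from after it 10.8 to 12.6 FPKM (median 12.2). The level was 14.0-fold higher at day 4 (log2 difference 3.68, SE 0.27, adjusted p = 0.00559). With a pseudocount of 1 the log2 difference was 2.81.

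Dhrs3, the reductase that returns retinaldehyde to retinol (chromosome 4, 144892534 to 144928209, plus strand), had the highest level of the 9 genes at day 4. Its means were 1.00 and 0.573 FPKM before RA and 101 and 81.4 FPKM after it. Libraries lay between 0.3 and 1.17 FPKM (median 0.822) at day 0 and between 72.8 and 110 FPKM (median 89.3) at day 4. The 116-fold higher level (log2 difference 6.72, SE 0.32, adjusted p = 0.00443) was the 17th highest difference of the 20281 genes. A pseudocount of 1 gave a log2 difference of 5.69 and the GC correction 7.33. Its 2 RefSeq rows, NM_011303 and NM_001172424, were both called higher. NM_011303 held 44.3% and 59.4% of the gene's FPKM in the day 0 samples, then 50.8% and 54.7%. In single libraries its share was 11.5% to 100% before RA, where the gene is near 1 FPKM, and 48.3% to 62.4% after it.

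**Figure D3:**
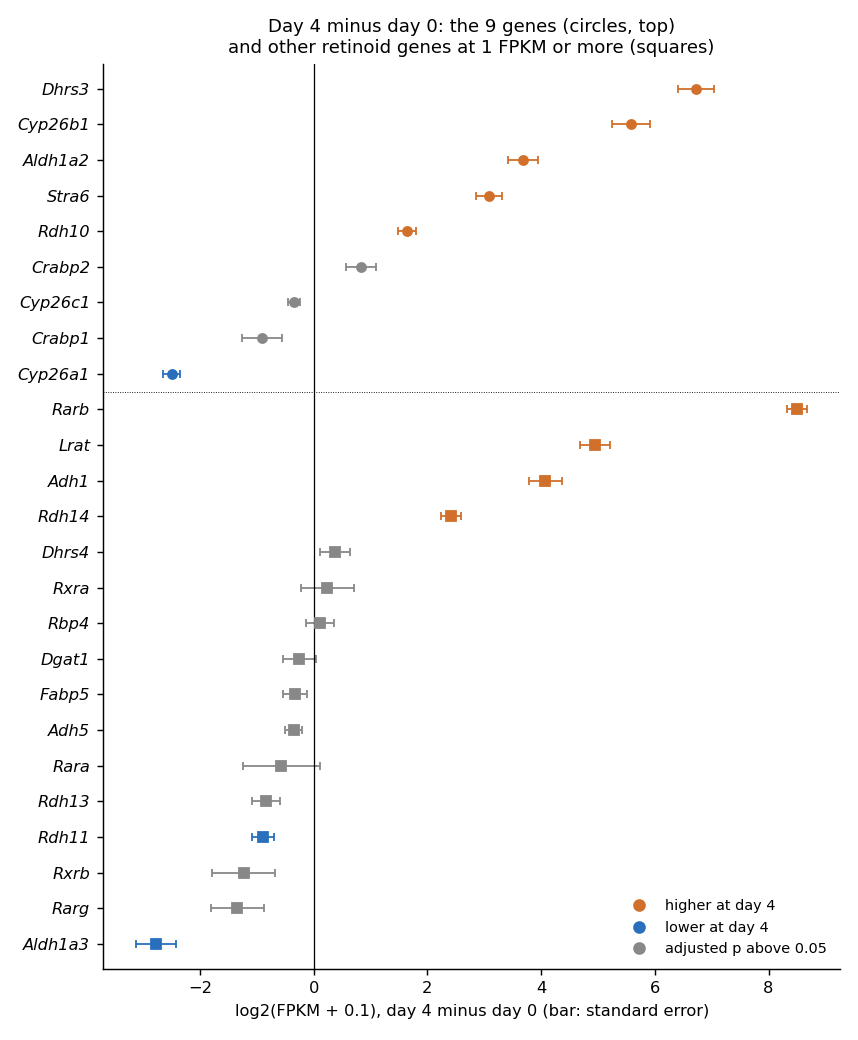
Difference of log2(FPKM + 0.1), day 4 minus day 0 (x axis, bars are standard errors, n = 2 RNA samples a day), for the 9 genes (circles, above the dotted line) and for the reported other retinoid genes with a mean of at least 1 FPKM on a day (squares). Colours give the call at an adjusted p of 0.05, and the values run from 6.72 for Dhrs3 to -2.50 for Cyp26a1 among the 9 genes and from 8.50 for Rarb to -2.77 for Aldh1a3 among the others.

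For each gene the nearest pattern over the 16 libraries was sought (Cyp26c1, under 1 FPKM on both days, was left out) among 11508 genes with a mean of at least 1 FPKM, as the root mean square difference of centred log2 values. With 2 days that differ, many genes share such a pattern, and the values are a description. The 3 genes nearest to Cyp26a1 were Spin2c, Cobll1 and Ly75, with differences of 0.11, 0.12 and 0.12. Spin2c was at 91.5 FPKM before RA and 15.2 FPKM after it, Ly75 at 12.5 and 2.1 FPKM, and Cobll1 at 2.82 and 0.436 FPKM. Nearest to Cyp26b1 was Igfbp5, which encodes a binding protein of insulin-like growth factors (3.22 and 136 FPKM, difference 0.18). Tgfb3, a ligand of the TGF-beta family, was nearest to Dhrs3 (0.577 and 55.1 FPKM, difference 0.23). Adamts1, a secreted protease, was nearest to Aldh1a2 (4.24 and 52.5 FPKM, difference 0.17), and Pkd2, a cation channel of the primary cilium, to Rdh10 (9.54 and 31.4 FPKM, difference 0.06). The gene nearest to Stra6 was Zkscan2 (0.19). Crabp1 and Crabp2 had Cyth2 (0.14) and Camk1 (0.07) as nearest genes. Cyth2 showed the same low vials as Crabp1, with a day 0 minimum of 5.31 FPKM beside a median of 31.2.

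Beside the 9 genes, 41 other genes of retinoid handling and its receptors were listed, of which 39 were tested and Rdh7 and Sdr16c5 were at 0 in every library. Of these, 8 were higher, 8 lower and 23 not called, where 16.1% and 14.7% of all genes were, and their median log2 difference was 0.12. Without the vials that stood apart 11 were higher and 14 lower, where 27.1% and 33.7% of all genes were. With the GC correction 13 were higher and 9 lower, where 27.8% and 24.6% of all genes were.

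Among the dehydrogenases and reductases, 3 of 14 tested were higher and 3 lower, beside 16.1% and 14.7% of all genes. Some of these calls lie near the lowest values that can be shown. They are Adh4 (higher, 0 and 0.0326 FPKM), Rdh5 (lower, 0.146 and 0.0733 FPKM) and Dhrs9 (lower, 0.0575 and 0.006 FPKM), which also count in the totals above. Rdh14, a retinol dehydrogenase, was at 4.08 ± 0.506 FPKM before RA and 22.2 ± 0.425 FPKM after it (log2 difference 2.42, adjusted p = 0.00564). Adh1, the alcohol dehydrogenase that can oxidize retinol, was at 0.0334 and 2.11 FPKM (4.08, adjusted p = 0.00534). Rdh11, a retinal reductase, was lower, at 37.4 and 20.03 FPKM (-0.89, adjusted p = 0.0413). Its lowest day 0 vial, at 22.31 FPKM, was just above its highest day 4 vial, at 22.285 FPKM. Adh5, the most abundant of this group at 179 and 140 FPKM, Rdh13 and Dhrs4 were not called, with adjusted p of 0.144, 0.0725 and 0.339.

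The aldehyde dehydrogenases did not all move one way. Aldh1a3, an alternative source of retinoic acid, was lower, at 1.29 ± 0.480 FPKM before RA and 0.0981 ± 0.0345 FPKM after it (log2 difference -2.77, adjusted p = 0.0139). Aldh1a1 and Aldh1a7 were called higher but stayed below 1 FPKM. These 2 genes are close copies of each other, and reads may be split between them. Aldh1a2 was thus the only one of the 5 genes of this class above 1 FPKM at day 4.

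In storage and binding, Lrat, which esterifies retinol, was at 0.0323 FPKM before RA and 3.99 FPKM after it (4.94, adjusted p = 0.00443). Dgat1, which can also esterify retinol, Rbp4, the plasma carrier of retinol, and Fabp5, a second carrier of retinoic acid, were not called (adjusted p of 0.522, 0.724 and 0.304). Fabp5 has many processed copies in the mouse genome, which makes its 174 and 138 FPKM less certain. Stra6l, a relative of Stra6, was lower (0.869 and 0.0463 FPKM), as were the carriers Rbp7 (0.810 and 0.0986 FPKM) and Rlbp1 (0.112 and 0.0296 FPKM). All of them averaged under 1 FPKM on both days.

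Of the nuclear receptors, Rarb was higher and Rxrg, which stayed near or below 1 FPKM, was lower. Rara, Rarg, Rxra and Rxrb were not called, with log2 differences of -0.57, -1.34, 0.24 and -1.23 and standard errors between 0.46 and 0.68. With the GC correction Rara (0.93, adjusted p = 0.0156), Rxra (1.59, adjusted p = 0.00155) and Rxrb (0.38, adjusted p = 0.0291) were called higher. Without the vials that stood apart Rarg (-1.65, adjusted p = 0.00957) and Rxrb (-1.64, adjusted p = 0.0141) were called lower, as they were with the block (adjusted p = 0.00179 and 0.00345), and Rxra had -0.091. Rarg had -0.03 with the GC correction and 0.083 with the correction and without these vials, so each of the 4 changed sign in at least 1 setting. In a list of 11 genes known as direct targets of retinoic acid, which also holds Rarb, 6 were higher and 1 lower. Among all genes tested, 16.1% were higher and 14.7% lower. Hoxa4 went from 0.0714 to 41.1 FPKM (7.91, adjusted p = 0.00443), and Hoxb4, Stra8 and Nrip1 were also higher, whereas Cdx1 was lower. Cyp26a1, itself a known target, had the sign of Cdx1.

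The GC-linked difference bears on this comparison, since the day 4 minus day 0 difference moved with GC content too. Over 11415 genes its Spearman correlation with GC content was -0.514, and that of the vials that stood apart was -0.864, both across genes, which are not independent replicates. The median difference between days was 0.50 below 45% GC and -1.20 between 55% and 60%. The 9 genes lay between 46.8% in Rdh10 and 63.3% in Cyp26c1, with none in the class below 45%. Cyp26b1 at 57.5% and Stra6 at 56.9% were higher at day 4 although genes of that GC class were mostly lower, and Cyp26a1 at 53.8% was lower in a class (50% to 55%) with a median of -0.41. After a correction for GC content Cyp26a1 had a log2 difference of -1.996 (adjusted p = 0.0231), and -1.58 when the 2 vials were also left out. Cyp26b1 then had 6.49 and 6.87, Stra6 3.70 and 3.80, and Dhrs3 7.33 and 7.29. Rdh10 and Aldh1a2 moved less, to 1.52 and 3.84 after the correction. The 6 called genes kept their sign and call under both settings. Whether GC content shapes the remaining difference of any gene was not tested.

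**Figure D4:**
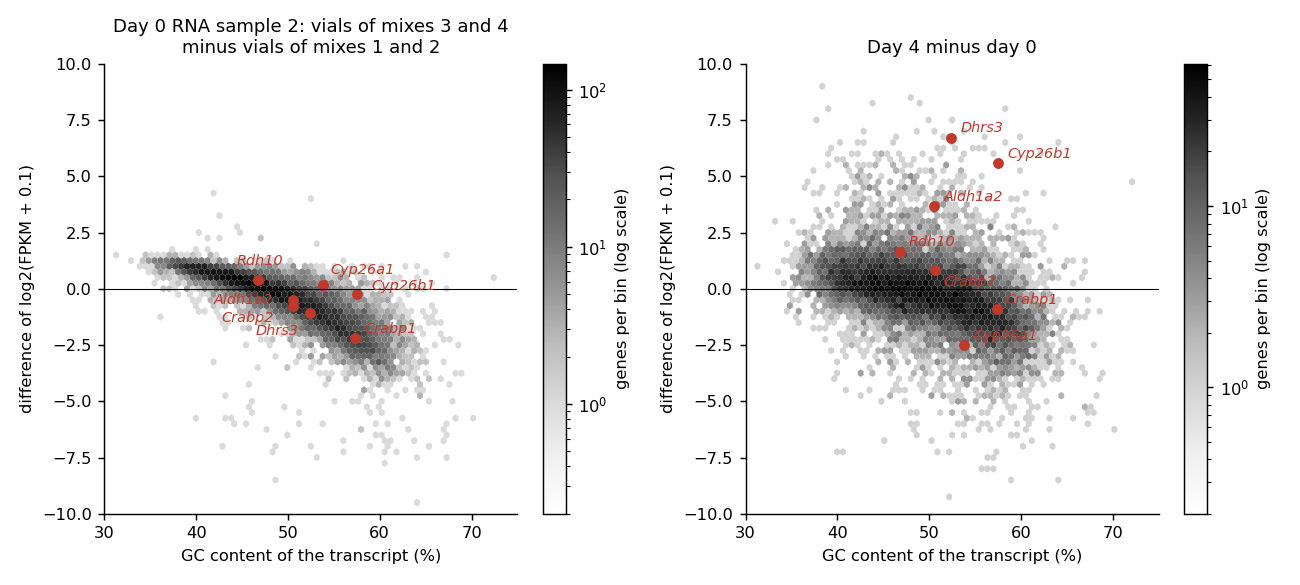
GC content of the transcript (x axes, %) against the difference of log2(FPKM + 0.1) (y axes) for 11415 genes, shaded by genes per bin on a log scale, with 7 of the 9 genes in red (Cyp26c1 and Stra6 average under 1 FPKM over the 16 libraries and are not drawn). On the left, the vials of mixes 3 and 4 minus those of mixes 1 and 2 of day 0 RNA sample 2 fall with GC content, and Crabp1 lies at -2.20; on the right, day 4 minus day 0, Dhrs3 and Cyp26b1 lie at 6.72 and 5.59.

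The labels name the cell type of every sample as embryonic stem cells, although markers of the cells that such bodies may hold moved with the days. For the counts of markers that follow, the share among all genes tested was 16.1% higher and 14.7% lower. Of 9 markers of pluripotent cells 8 were lower and none higher, and their summed level was 205 and 149 FPKM before RA and 13.8 and 9.06 FPKM after it. By mean, Pou5f1 was the most abundant before RA and went from 62.2 ± 35.4 to 0.864 ± 0.242 FPKM. In day 0 RNA sample 2 Pou5f1 was at 37.2 FPKM, below Tdgf1 at 57.0 FPKM. Nanog, Sox2, Zfp42 and Dppa5a stayed above 1 FPKM in both day 4 RNA samples. Dppa5a, at a mean of 5.17 FPKM, led the list at day 4. Of 7 markers of primitive streak and mesoderm 6 were lower and Meox1 was higher, with sums of 132 and 126 FPKM before RA and 3.23 and 3.53 FPKM after it. T, the most abundant of them before RA, had the lowest log2 difference of all genes tested (-9.13, from 67.0 to 0.0190 FPKM). At day 4 Meox1 led this list, at 2.78 FPKM, and Mesp1 and Gsc were listed at 0 in all day 4 libraries.

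Of 9 markers of primitive and visceral endoderm 6 were higher and none lower. The other 3, Sox17, Amn and Cubn, were not called and had negative log2 differences (-0.44, -0.90 and -0.60). Amn was at 0.111 and 0.0106 FPKM and Cubn at 0.273 and 0.144 FPKM, with every day 4 library of Cubn below every day 0 library. The sum of the 9 markers was 18.1 and 17.1 FPKM before RA and 83.6 and 83.6 FPKM after it. By mean it was led before RA by Gata4 (6.6 and 18.6 FPKM) and after it by Gata6 (6.36 and 54.4 FPKM). The day 0 libraries of Gata4 and Gata6 overlapped, and in day 0 RNA sample 2 Gata6 (6.47 FPKM) was above Gata4 (5.46 FPKM). Of 6 genes of fibroblasts or feeder cells 4 were higher and 1, Thy1, was lower, with sums of 28.7 and 10.6 FPKM before RA and 230 and 214 FPKM after it. Col3a1, the most abundant at day 4, went from 0.866 to 157 FPKM and Postn from 0.434 to 36.1 FPKM. Col1a1, the most abundant before RA, was at 13.0 and then 1.81 FPKM, not called (log2 difference -2.54, adjusted p = 0.0553) but without overlap of libraries. The 11 neural markers were divided, with 4 higher (Pax6, Dcx and Neurog2 among them) and 3 lower (Sox1, Tubb3 and Neurod1). Their sum was 42.0 and 27.2 FPKM before RA and 24.2 and 26.7 FPKM after it, mostly from Nes (20.8 and 19.3 FPKM, not called), and 4 of the list, with Neurog1, Neurog2 and Olig2 among them, averaged under 0.1 FPKM on both days. Of 7 markers of blood and endothelium 3 were lower and 1 higher, with sums of 128 and 104 FPKM before RA and 125 and 103 FPKM after it, led before RA by Kdr (45.02 FPKM, called lower, to 17.2 FPKM) and after it by Hbb-bh1 (33.7 and 69.7 FPKM, not called). The part of these cell types in the levels of the 9 genes was not tested.

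**Figure D5:**
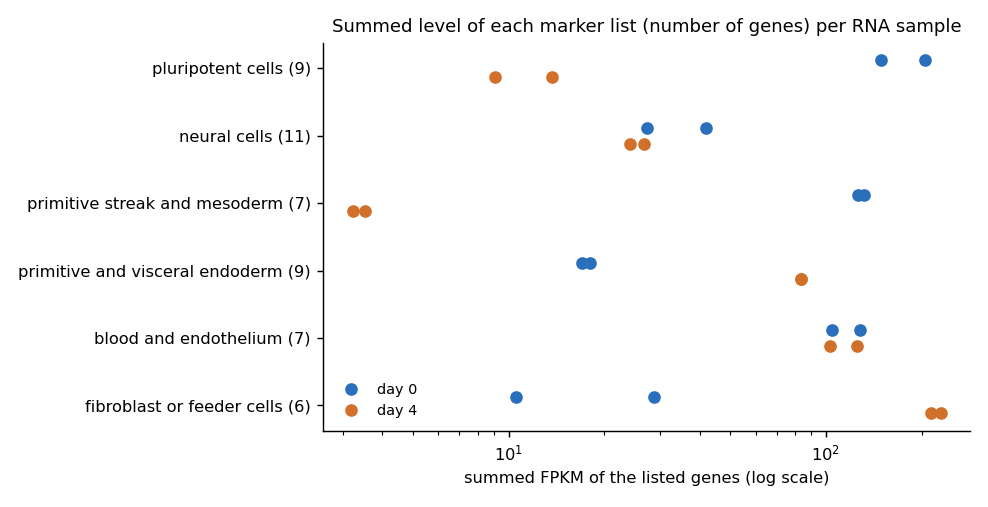
Summed FPKM (x axis, log scale) of each list of marker genes (y axis, number of genes in parentheses) in the 2 RNA samples of each day (points). Pluripotent and streak lists are lower at day 4, endoderm and fibroblast lists higher (the 2 day 4 points of endoderm, both 83.6 FPKM, coincide), and the neural lists lie close together and the blood lists overlap.

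The calls rest on 2 RNA samples a day. Without either day 4 RNA sample no gene of the 20281 passed, and the 6 called genes kept their sign with adjusted p between 0.0925 and 0.164. At an unadjusted p of 0.05 limma still gave 4900 genes without RNA sample 1 of day 4 and 4676 without RNA sample 2.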

How the data were processed

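Per the labels and the study's methods, strand-specific total RNA libraries depleted of ribosomal RNA were sequenced as paired-end reads of the bodies' RNA. The submitters' processing notes name Bowtie2 2.1.0, RSEM 1.2.18 and TopHat2 2.0.10 and the build mm10. The authors estimated FPKM per RefSeq transcript with RSEM and scaled each library by a TMM factor, and the deposited FPKM values were used as they are. Low values step with the rounding of the table, not with whole reads, so that no counts were recovered and no count test was run.

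Rows were given symbols through RefSeq tables of GRCm38.p6 (99.2% of rows) and summed per gene. FPKM was averaged over the 4 vials of an RNA sample, and log2(FPKM + 0.1) was tested with limma 3.58.1 (R 4.3.3, eBayes with a trend) over all genes above 0 in any library. The labels do not number the RNA samples, which were taken from the study's sample table. Of genes beside the 9, those with a mean of at least 1 FPKM on a day (retinoid list), the 2 most abundant of each marker and target list, and the nearest patterns were named by rule, and the others for their call. The 9 genes and all lists were chosen with earlier results of these data known. Some genes of the lists are counted but not reported here. The limma step was tested on simulated data. The GC correction divided FPKM by the deviation of each library in 20 bins of GC content. Alternatives numbered 24, of which 3 (those with the GC correction) were added after the data had been seen.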

Additional observations from a re-analysis of the deposited data

Results flagged for a closer look

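In 98 groups of 8 libraries (49 named genes on 2 days), Dixon's test at the 95% level marked 3 single values, where chance alone marks about 1 group in 20. The 8 libraries of a group come from 2 RNA samples and are not independent. Cyp26b1 was at 17.8 FPKM in the mix 1 vial of day 4 RNA sample 1, while the other day 4 libraries lay between 19.3 and 20.3 FPKM. Cyp26c1 was at 0.097 FPKM in the mix 3 vial of day 0 RNA sample 1, beside 0 to 0.043 FPKM in the others. Rarb was at 0.116 FPKM in the mix 4 vial of the same RNA sample, beside 0.174 to 0.226 FPKM. The Cyp26b1 vial is the library that the methods name as an outlier in ribosomal RNA reads. Without it the log2 difference of that gene was 5.60 (limma, adjusted p = 0.00579).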

How the results depend on the processing

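Over 24 alternative settings, Cyp26a1 stayed lower (log2 difference -2.59 to -1.58) and Cyp26b1 (3.96 to 6.87), Stra6 (0.99 to 4.6), Rdh10 (1.52 to 1.84), Aldh1a2 (2.81 to 3.93), Dhrs3 (5.69 to 7.33) and Crabp2 (0.53 to 1.14) higher in each setting that tested them. The lowest value of Stra6 came with a pseudocount of 1. With a mean of at least 1 FPKM required, Cyp26c1 and Stra6 were not tested.

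Genes called higher and lower numbered 3275 and 2980 as reported. A mean of at least 1 FPKM gave 2082 higher, the median over vials 1713 lower, no filter 1631 lower, and 16 libraries with a random block 4550 lower. Mix 1 alone gave 6643 lower, mix 3 alone 550 and 187, mix 4 alone 1033 and 367. Leaving out the 2 vials that stood apart gave 5503 and 6842, the GC correction 5638 and 4979, and both together 6885 and 6105. Leaving out 1 RNA sample gave 0 to 3681 higher and 0 to 5563 lower (the lone sample of a day is then assumed to vary like the others). Of the 9 genes, 1 was called higher with mix 3 alone (Cyp26b1), where Stra6, Dhrs3, Aldh1a2 and Rdh10 had adjusted p of 0.0522, 0.0522, 0.0652 and 0.0691. Of all 20281 genes, 3195 were called lower with a pseudocount of 0.01 and 6643 with mix 1 alone. The GC correction called 4979 lower (24.6%), that correction without the 2 vials 6105, and leaving out the 2 vials alone 6842 (33.7%). Of the 9 genes, each of these settings called 2 lower, except the last, which called 3. Leaving out 1 RNA sample gave 0 to 6 higher and 0 to 2 lower.

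Transcript rows numbered 2875 and 2446. Averaged logs gave 1462 lower, medians 1475 lower, no filter 1385 lower, the random block 5500 and 5409, mix 1 alone 5204 and 7269, mix 3 alone 0 and 0, mix 4 alone 225 and 73, without the 2 vials 6262 and 8155, the GC correction 5255 and 4885, and both 7497 and 7187. Leaving out 1 RNA sample gave 0 to 3048 and 0 to 4747.

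The study's methods describe a procedure run again as a whole, which would pair the RNA samples of the days by number, though no label states it. Deviations of same-numbered samples from the mean of their day correlated with r = 0.789 over 11508 genes, with 2 pairs only. All vials entered this value, also those of day 0 RNA sample 2 that stood apart and followed GC content. It was not computed without them or after the GC correction, and whether GC content contributes to it was not tested. With the number as a replicate block 5983 genes and 5898 transcript rows were lower and 3 of the 9 genes were, Crabp1 and Cyp26c1 among them, and Crabp2 was called higher. The GC correction with the block gave 6099 and 5565 genes and 5280 and 5281 rows.

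Signs turned in few places, and the cause was not tested. Crabp1 and its row NM_013496 had 0.42 and 0.42 with the GC correction, with or without the block, and 0.39 and 0.39 with the 2 vials also left out. The same settings gave Dgat1 0.78 and 1.02, Rara 0.93 and 0.92, Rxrb 0.38 and 0.28, Nes 0.64 and 1.11, and Rarg 0.083 in the last of them. Dgat1 had 0.21 with mix 3 alone. Rara had 0.36 with mix 3 alone and 0.25 with mix 4 alone. Rbp4 had -0.013 with mix 1 alone and -0.10 with mix 4 alone. Rxra had -0.42 with mix 1 alone and -0.091 without the 2 vials. Nes had 0.020 with quantile normalization. Leaving out 1 RNA sample at a time gave Dgat1 -0.59 to 0.079, Rbp4 -0.0082 to 0.24, Rara -1.44 to 0.30, Rxra -0.34 to 0.82 and Nes -0.24 to 0.046. None of these genes was called as reported, but several passed with the reversed sign: Rara (adjusted p = 0.0156 with the GC correction and 0.00892 with the 2 vials also left out), Rxrb (0.0291 and 0.0106), and Dgat1 and Nes (0.00284 and 0.00925 in the last setting). With the block added to the GC correction, Rara, Rxrb, Dgat1 and Nes passed too (0.00619, 0.0237, 0.0124 and 0.0315), and so did Crabp1 (higher, 0.0370), which the block alone called lower (0.0105).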
